A study of Mus musculus with 6 samples.

Results

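The Frizzled receptors and the LRP coreceptors, with the Wnt receptor Ror2, were examined in RNA-Seq data from mouse primary mesangial cells. The members were the rows of the deposited expression table whose gene symbol was Fzd1, Fzd2, Fzd4, Fzd5, Fzd6, Fzd7, Fzd8, Lrp5, Lrp6 or Ror2, which gave 10 of 19730 rows, 1 row per gene. Mesangial cells are the contractile support cells between the capillaries of the kidney glomerulus, and TGF-β1 is a secreted growth factor that drives matrix deposition and scarring. The Control group and the TGF-β1 group held 3 libraries each, and the design asks which genes changed with the treatment. The dose of TGF-β1 was 10 ng/ml and the exposure lasted 72 h. The labels name no allele or transgene. Cells of both groups were at passages 3 to 6 and were grown in high glucose (25.5 mM) with 20% foetal bovine serum, so the Control cells were also in high glucose and serum. Strain, sex and age of the donor mice, and whether the 3 libraries of a group came from separate cultures, were not given in the sources used here, so the p-values measure the spread between these libraries, which may be technical.

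Wnt proteins are secreted lipid-modified ligands that bind the cysteine-rich outer domain of Frizzled receptors. When a Wnt brings a Frizzled together with Lrp5 or Lrp6, the scaffold protein Dishevelled and Axin are drawn to the membrane and β-catenin escapes degradation, enters the nucleus and acts with TCF/LEF factors. Frizzled receptors also act without LRP coreceptors, alone or with Ror2, in the planar cell polarity and calcium routes that steer cell shape and movement. In the kidney, Wnt signalling is known for its part in nephron formation and in the response to injury.

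Levels are given as FPKM, fragments per kilobase of transcript and per M (mega) of mapped fragments, which is a value per length and lets different genes be set side by side. Changes are differences of mean log2(FPKM + 1), TGF-β1 minus Control, which understate the change of low genes. The steps between the lowest FPKM values corresponded to 10.12 to 11.04 M fragments per library. Of 8 genes listed as known TGF-β responses, 7 rose and 1, Tgfbi, fell from 3.41 ± 0.725 to 0.611 ± 0.254 FPKM. Skil, a direct TGF-β target that encodes a nuclear repressor of SMAD proteins, rose from 2.42 ± 0.226 to 18.2 ± 1.17 FPKM (mean ± SD, n = 3 libraries per group). Of the mesangial markers, Pdgfrb was present at 28.4 to 41.1 FPKM across the 6 libraries, while Itga8, Des, Thy1 and Pdgfra were under 1 FPKM in every library. TGF-β1 replicate 2 stood apart from its group. In that library, deviations from the group mean fell with the GC content of a transcript (Spearman's rho = -0.391 across genes, which are not independent), against 0.271 and 0.318 in TGF-β1 replicates 1 and 3 and -0.0902 to 0.0984 in the Control libraries. Member changes are given with this library and, where it was the highest or lowest of its group in a called member, without it.

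Fzd6 transcripts rose with TGF-β1 while those of Fzd7, Fzd1, Fzd8, Lrp5 and Lrp6 fell. Fzd6 went from 18.7 ± 1.70 to 41.9 ± 3.12 FPKM, and Lrp5 went from 3.14 ± 0.481 to 1.31 ± 0.432 FPKM. Fzd5 also rose, by a smaller amount and from a low level, and Fzd2 and Fzd4 did not pass the test. Ror2 was at or under the level that 3 fragments give in every library. In all, 9 of the 10 members averaged 1 FPKM or more over the 6 libraries and were tested. Of these, 7 had an adjusted p under 0.05 (limma, Benjamini-Hochberg over all 11898 tested rows), against 48.1% of all tested rows. The 2 members that rose are read against 24.5% of tested rows that rose, and the 5 that fell against 23.6% that fell. The count that rose was 1, Fzd6 alone, without any one of Control replicates 1 and 2 and TGF-β1 replicates 1, 2 and 3, and with the replicate block. The Control and TGF-β1 libraries did not overlap in the same number of members, 7, against 59.4% of tested rows. The median change of the 9 tested members was -0.59, against -0.017 for all tested rows. These are bulk libraries, so fewer cells of a type and less RNA per cell cannot be told apart.

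**Figure D1:**
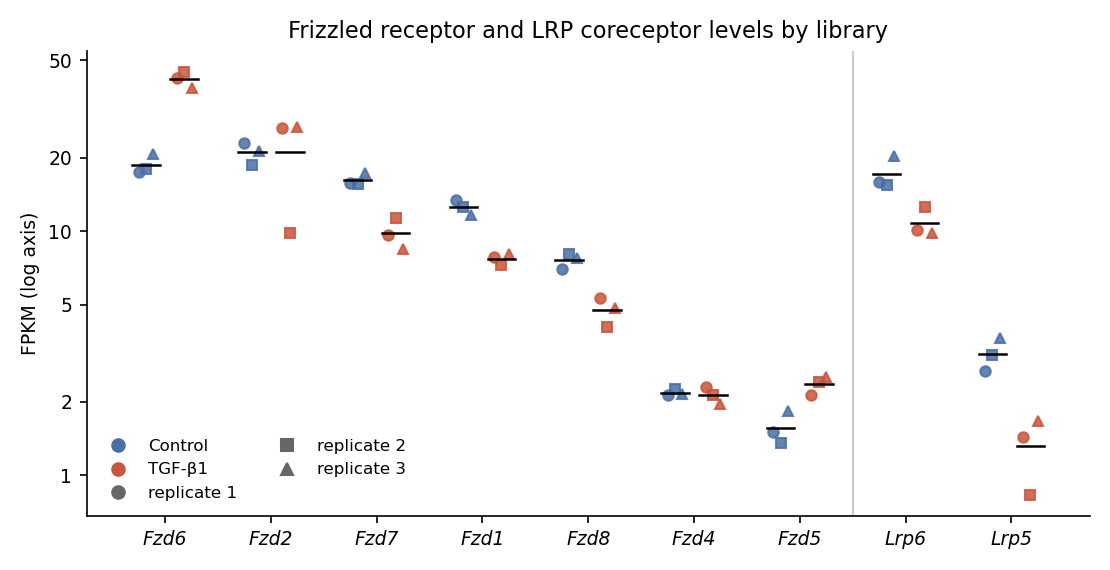
Level of each tested member in each library, in FPKM on a log axis, with Control in blue and TGF-β1 in red, a marker shape for each replicate number and a black bar at each group mean. Fzd6 stands at 38.7 to 44.9 FPKM in the TGF-β1 libraries, above 17.5 to 20.6 in Control, and the Fzd2 value of TGF-β1 replicate 2 lies at 9.85 FPKM, far below the other TGF-β1 libraries.

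Fzd6 encodes a receptor best known for planar cell polarity, such as the orientation of hair follicles. The gene lies on chromosome 15 at 38837879 to 38869732 of mm9, plus strand, and its transcript has 7 exons. The Control libraries held 17.5, 17.97 and 20.6 FPKM, and the TGF-β1 libraries held 42.3, 44.9 and 38.7 FPKM. Every TGF-β1 library was above every Control library, with a gap wider than the range within either group. The mean was 2.24-fold higher with TGF-β1, a log2 change of 1.13 (95% interval 0.89 to 1.36, limma adjusted p = 0.000269), and without TGF-β1 replicate 2 it was 1.08. This was the largest change among the tested members on the log2(FPKM + 1) scale, and 94.1% of tested rows had a lower change. The order depends on the pseudocount: at 0.1 the change of Fzd6 was 1.16 and that of Lrp5 was -1.24. The values rest on about 749 to 863 fragments per Control library and 1624 to 1800 per TGF-β1 library.

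Fzd7 encodes a receptor prominent in stem cells of the gut and is close in sequence to Fzd1 and Fzd2. It lies on chromosome 1 at 59538991 to 59543791 of mm9, plus strand, as 1 exon. Its level was 15.7, 15.5 and 17.3 FPKM in Control and 9.64, 11.3 and 8.46 FPKM with TGF-β1. The groups did not overlap, and TGF-β1 replicate 2 was the highest of its group. The log2 change was -0.68 (95% interval -0.96 to -0.39, limma adjusted p = 0.00422), and without TGF-β1 replicate 2 it was -0.77.

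Fzd1, which can signal through β-catenin, lies on chromosome 5 at 4753842 to 4758216 of mm9, minus strand, also as 1 exon. The Control libraries held 13.4, 12.6 and 11.6 FPKM and the TGF-β1 libraries 7.82, 7.26 and 8.06 FPKM. The groups were far apart relative to their spread. The mean fell to 0.615 of the Control mean, a log2 change of -0.63 (95% interval -0.84 to -0.42, limma adjusted p = 0.0017), and -0.60 without TGF-β1 replicate 2.

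Fzd5 encodes a receptor needed for yolk sac and placental vessels and is the closest relative of Fzd8. It lies on chromosome 1 at 64777134 to 64784324 of mm9, minus strand, and its transcript has 2 exons. Its level was 1.51, 1.36 and 1.83 FPKM in Control and 2.13, 2.42 and 2.53 FPKM with TGF-β1, or about 101 to 132 and 157 to 184 fragments. The groups did not overlap, but the gap between the highest Control and the lowest TGF-β1 library was narrower than the range within either group. The log2 change was 0.39 (95% interval 0.10 to 0.69, limma adjusted p = 0.0376). This call was lost without any one of Control replicates 1 and 2 and TGF-β1 replicates 1, 2 and 3, with adjusted p from 0.0556 to 0.0973 (limma), while the change stayed between 0.33 and 0.44. It was also lost with the replicate block (limma adjusted p = 0.0663).

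The bases before the start site are shown for Fzd7 and Fzd1, which fell, and for Fzd5, which rose, since these members with a RefSeq promoter record passed the test. Of the 10 members, 5 had such a record: Fzd1, Fzd4, Fzd5, Fzd7 and Ror2. Each line holds the 250 bases before the start, 5′ to 3′ on the strand of the gene, from RefSeq on GRCm38.p6, a later build than the mm9 positions above. Capitals mark GC boxes, the letters GGGCGG or, for the other strand, CCGCCC, with overlapping matches counted. The windows are chr1:59481897-59482146, plus strand, for Fzd7, chr5:4758217-4758466, minus strand, for Fzd1, and chr1:64737751-64738000, minus strand, for Fzd5.
Fzd7: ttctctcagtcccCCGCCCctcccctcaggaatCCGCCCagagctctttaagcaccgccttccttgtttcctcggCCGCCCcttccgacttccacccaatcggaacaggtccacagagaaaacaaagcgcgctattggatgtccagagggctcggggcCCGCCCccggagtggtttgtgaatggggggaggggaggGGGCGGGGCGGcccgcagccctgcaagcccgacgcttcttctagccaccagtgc
Fzd1: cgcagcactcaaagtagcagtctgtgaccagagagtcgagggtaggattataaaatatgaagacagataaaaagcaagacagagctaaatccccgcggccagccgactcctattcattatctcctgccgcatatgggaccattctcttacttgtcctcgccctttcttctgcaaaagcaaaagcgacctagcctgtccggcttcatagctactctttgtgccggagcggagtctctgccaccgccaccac
Fzd5: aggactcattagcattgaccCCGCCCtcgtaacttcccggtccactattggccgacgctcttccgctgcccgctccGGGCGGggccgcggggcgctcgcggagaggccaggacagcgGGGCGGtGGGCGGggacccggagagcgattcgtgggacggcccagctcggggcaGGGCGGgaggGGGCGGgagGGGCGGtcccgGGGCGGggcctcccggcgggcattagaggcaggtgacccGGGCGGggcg

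The Fzd7 window held 6 GC boxes and the Fzd5 window 9, whereas the Fzd1 window held 0. At least 1 GC box was present in 32.7% of 32851 mouse promoter windows of the same length. The GC content of the windows was 65.2% for Fzd7, 76.4% for Fzd5 and 51.2% for Fzd1, against a median of 52.4% over all windows. The Fzd1 window held 1 match each, on either strand, to CAGAC (the SMAD box, in 42.2% of windows), CTTTGA (the core of the TCF motif, in 13.8%) and TATAAA (the TATA box, in 12.4%), while the Fzd7 and Fzd5 windows held none of these. The windows of Fzd4 and Ror2 held 7 and 4 GC boxes. A match is a description of the letters and not evidence of binding, and nothing is drawn from it about the changes of these transcripts.

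Fzd2, the third gene of the Fzd1 and Fzd7 group and a receptor for Wnt5a, lies on chromosome 11 at 102465745 to 102469372 of mm9, plus strand, as 1 exon. It was the highest member in Control, at 23.0, 18.6 and 21.3 FPKM. The TGF-β1 libraries held 26.4, 9.85 and 26.8 FPKM, so replicates 1 and 3 were above every Control library and replicate 2 was below every one. Replicate 2 was at 0.37 of the mean of the other TGF-β1 libraries, and the Fzd2 transcript has a GC content of 56.6%. The same measure was 0.915 for Fzd1 (GC content 56.1%), 0.796 for Fzd8 (57%), 1.25 for Fzd7 (54.6%) and 0.537 for Lrp5 (58.6%). The part of GC content in the low Fzd2 value was not tested. In a refit with the GC and length trend removed, the Fzd2 change was 0.017 (limma adjusted p = 0.968). With all libraries the log2 change was -0.12 (95% interval -1.01 to 0.78, limma adjusted p = 0.82). Without TGF-β1 replicate 2 the direction turned, to 0.33 (limma adjusted p = 0.0614), and with replicates 1 and 3 of both groups alone it was 0.25 (limma adjusted p = 0.101). The interval spans falls as large as those of the members called lower and rises of up to 0.78, so no direction can be read for Fzd2.

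Fzd4, the receptor for norrin in retinal vessels, lies on chromosome 7 at 96552876 to 96558620 of mm9, plus strand, with 2 exons. It held 2.13, 2.26 and 2.16 FPKM in Control and 2.30, 2.12 and 1.96 FPKM with TGF-β1. The groups overlapped, with the highest and the lowest library both in the TGF-β1 group. The log2 change was -0.03 (95% interval -0.27 to 0.22, limma adjusted p = 0.857). The interval leaves out changes as large as those of Fzd1, Fzd6 and Fzd7, although each library gave only about 74 to 88 fragments.

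Fzd8, the closest relative of Fzd5, lies on chromosome 18 at 9212854 to 9216199 of mm9, plus strand, as 1 exon. It held 7.02, 8.03 and 7.78 FPKM in Control and 5.33, 4.05 and 4.85 FPKM with TGF-β1. All TGF-β1 libraries were below all Control libraries. The log2 change was -0.59 (95% interval -0.87 to -0.31, limma adjusted p = 0.00679), and -0.50 without TGF-β1 replicate 2. Fzd8 stayed more abundant than Fzd5, at 4.74 ± 0.647 against 2.36 ± 0.207 FPKM with TGF-β1.

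Both LRP coreceptors, which carry the Wnt signal to Axin, were lower with TGF-β1. Lrp6, the coreceptor with the larger part in embryonic development, lies on chromosome 6 at 134396494 to 134516983 of mm9, minus strand, with 23 exons. Its level was 15.9, 15.5 and 20.2 FPKM in Control and 10.1, 12.5 and 9.82 FPKM with TGF-β1. The groups did not overlap, and Control replicate 3 and TGF-β1 replicate 2 were the highest of their groups. The log2 change was -0.62 (95% interval -0.96 to -0.28, limma adjusted p = 0.0121), and -0.72 without TGF-β1 replicate 2.

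Lrp5, known for its part in setting bone mass, lies on chromosome 19 at 3584825 to 3686564 of mm9, minus strand, also with 23 exons. The Control libraries held 2.68, 3.12 and 3.64 FPKM and the TGF-β1 libraries 1.43, 0.834 and 1.67 FPKM. The groups did not overlap, and TGF-β1 replicate 2 was again apart from the others, this time as the lowest. The log2 change was -0.85 (95% interval -1.29 to -0.42, limma adjusted p = 0.00906), and without TGF-β1 replicate 2 it was -0.69 (limma adjusted p = 0.0149). Lrp5 had the largest fall of the members on this scale, from 147 to 195 fragments in Control to 42 to 90 with TGF-β1. Its mean FPKM fell to 0.417 of the Control mean. The intervals of the 5 members that fell overlapped one another, and differences between these members were not tested.

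**Figure D2:**
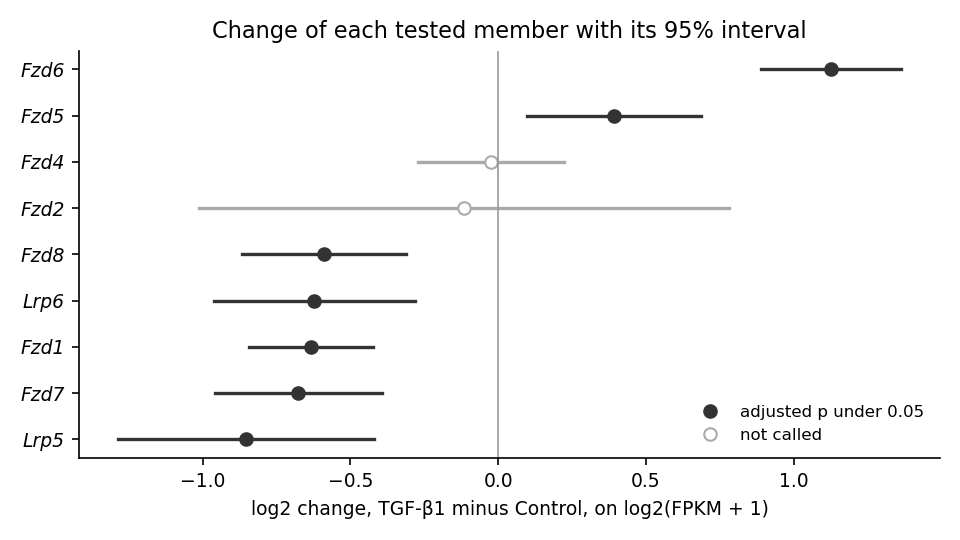
Change of each tested member on the log2(FPKM + 1) scale, TGF-β1 minus Control, with its 95% interval as a line; filled points have an adjusted p under 0.05 in limma. Fzd6 lies at 1.13, the 5 members that fell lie between -0.85 and -0.59, and the interval of Fzd2 runs from -1.01 to 0.78.

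The summed level of both coreceptors was 18.5, 18.6 and 23.9 FPKM in Control and 11.5, 13.3 and 11.5 FPKM with TGF-β1, with no overlap. Lrp6 made up most of it in every library. The ratio of Lrp6 to Lrp5 was 5.92, 4.96 and 5.56 in the Control libraries and 7.03, 15.0 and 5.87 in the TGF-β1 libraries. The highest ratio came from TGF-β1 replicate 2, and TGF-β1 replicate 3 lay below Control replicate 1, so the groups overlapped in this ratio. The Lrp5 transcript has a GC content of 58.6% and the Lrp6 transcript 46%, and TGF-β1 replicate 2 was at 0.537 and 1.26 of the mean of the other TGF-β1 libraries for these genes. The part of GC content in this ratio was not tested.

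Ror2, a receptor with a kinase-like domain that binds Wnt5a, lies on chromosome 13 at 53204681 to 53381493 of mm9, minus strand. It was listed at 0.0513, 0 and 0.0263 FPKM in Control and at 0.0258, 0 and 0.0523 FPKM with TGF-β1. These values correspond to 2, 0 and 1 fragments and to 1, 0 and 2 fragments, so both groups were at or under a floor of 3 fragments and no fold is given. The row names 1 of 3 annotated Ror2 transcripts, of 3730 nt against 3985 nt for the longest. It is not stated whether the row holds the gene or that transcript alone.

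The composition of the Frizzled transcripts was taken as each gene's percent of the summed FPKM of the 7 Frizzled members in a library, with no test. Fzd6 took 21.8, 23.5 and 25.0% in the Control libraries and 44.1, 54.8 and 42.3% in the TGF-β1 libraries. Fzd7 went from 20.3 ± 0.721 to 11.04 ± 2.42%, Fzd1 from 15.7 ± 1.45 to 8.61 ± 0.404% and Fzd8 from 9.56 ± 0.891 to 5.27 ± 0.307% (mean ± SD, n = 3). The Fzd2 share was 24.4 to 28.7% in Control and 27.5, 12.0 and 29.3% with TGF-β1. Fzd4 and Fzd5 stayed under 3% in every library.

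The summed Frizzled level was 80.2, 76.4 and 82.6 FPKM in Control and 96.0, 81.9 and 91.3 FPKM with TGF-β1, and the groups overlapped. Without Fzd6 the sum was 62.7, 58.4 and 62.0 FPKM in Control and 53.7, 37.0 and 52.6 FPKM with TGF-β1, with every TGF-β1 library below every Control library. The ratio of Fzd6 to Fzd7 was 1.11 to 1.19 in Control and 3.97 to 4.57 with TGF-β1. The pair was thus at nearly equal levels in Control and far apart in each TGF-β1 library.

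**Figure D3:**
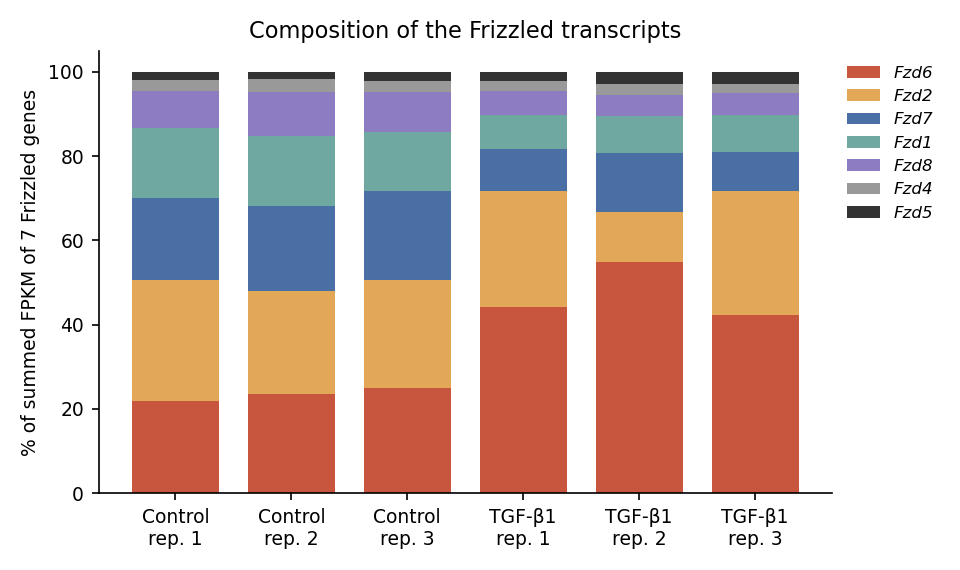
Percent of the summed FPKM of the 7 Frizzled genes held by each gene, 1 stacked bar per library. Fzd6 holds 21.8 to 25.0% in the Control libraries and 42.3 to 54.8% in the TGF-β1 libraries, and Fzd2 holds 12.0% in TGF-β1 replicate 2.

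In Control, the order of levels per length was Fzd2, Fzd6, Lrp6, Fzd7, Fzd1, Fzd8, Lrp5, Fzd4, Fzd5 and Ror2. The first 4 were between 15.5 and 23.0 FPKM and neighbours among them overlapped, while each later member lay below the one before it in every library. With TGF-β1 the order was Fzd6, Fzd2, Lrp6, Fzd7, Fzd1, Fzd8, Fzd5, Fzd4, Lrp5 and Ror2. Fzd6 was then above Fzd2 without overlap, and Lrp5 dropped from seventh to ninth place. The ranges of Fzd2 and Lrp6, of Lrp6 and Fzd7, and of Fzd5 and Fzd4 overlapped in that group.

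The other genes of the pathway were taken from fixed lists, in which some genes occur more than once. In a list of other receptors, 7 of 12 genes were tested, of which 2 rose, 3 fell and 2 did not pass, with a median change of -0.11. The list holds Smo, a Frizzled-related transducer of Hedgehog and not a Wnt receptor, and Smo is 1 of the 3 that fell. The R-spondin receptors Lgr6 and Lgr4 had the largest rise and fall. Lgr4 went from 16.2 ± 0.656 to 5.30 ± 0.348 FPKM (limma, a change of -1.45 on the log2 scale, adjusted p = 6.1e-05). Lgr6 went from 0.0578 ± 0.0717 to 5.76 ± 1.30 FPKM, a change of 2.66. Lgr6 passed the filter only through the TGF-β1 libraries, so its p-value is not given. Among Frizzled genes outside the member list, and chosen after its values were seen, Fzd3 had 1.11, 1.95 and 4.85 FPKM in Control and 2.09, 2.26 and 1.88 FPKM with TGF-β1 and was not called. Ror1, the relative of Ror2, was also chosen after its values were seen and was under the filter, at 0.766, 0.472 and 0.384 FPKM in Control and 0.0656, 0.0355 and 0.0166 FPKM with TGF-β1.

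Proteins that partner the receptors or control their turnover had 9 of 20 genes tested, with 2 that rose, 3 that fell and 4 that did not pass (median change -0.30). Kremen1, which binds Dickkopf proteins and removes Lrp6 from the surface, rose by 0.79 on the log2 scale (limma adjusted p = 0.00218), whereas Lrp5 and Lrp6 fell. Reck, a partner of Gpr124 in Wnt7 signalling through Frizzled, fell by 1.19 (limma adjusted p = 0.00172).

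Of the Wnt ligands and the genes for their secretion, 10 of 21 were tested, and 6 rose, 3 fell and 1 did not pass (median change 0.66). Wnt9a rose from 1.42 ± 0.599 to 32.2 ± 5.26 FPKM and Wnt16 fell from 86.0 ± 11.9 to 1.17 ± 0.255 FPKM, the largest changes of this list (limma adjusted p = 5.6e-05 and 5e-06). Of the list of secreted antagonists, 5 of 15 were tested, with 3 that rose and 2 that fell (median change 0.82). The list holds Apcdd1, which is membrane-bound and also listed as a β-catenin target. Apcdd1 is 1 of the 3 that rose, and its change of 0.82 is the median. Dkk2, a ligand of Lrp5 and Lrp6, rose by 1.21 on the log2 scale and passed the filter only through the TGF-β1 libraries. Sfrp2, a secreted Frizzled-like Wnt binder, was at 5.22 ± 2.16 FPKM in Control and listed at 0 in all 3 TGF-β1 libraries. It passed the filter only through Control.

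The remaining lists, mostly of genes downstream of the receptors, moved in both directions. In the β-catenin route, 20 of 23 genes were tested, and 5 rose, 4 fell and 11 did not pass (median change -0.015). Tnks2, a tankyrase that marks Axin for degradation, rose by 0.82 and Bcl9, a coactivator that binds β-catenin, fell by 1.01 (log2 scale, limma adjusted p = 0.00473 and 0.00106). Of the known β-catenin target genes, 8 of 17 were tested, and 6 rose, 1 fell and 1 did not pass (median change 1.02). The 9 under the filter moved in both directions, and those named here were chosen after their values were seen. Axin2 was at 0.991 FPKM in Control and 0.882 FPKM with TGF-β1. Rnf43 was lower with TGF-β1, at 1.08 and 0.170 FPKM, and Nkd1 higher, at 0.0860 and 0.641 FPKM. Wisp1, a secreted matricellular protein, rose by 3.67 (log2 scale, limma adjusted p = 2.7e-06). Wisp2 of the same family fell by 0.53 and passed the filter only through Control. In the planar polarity and calcium routes, 25 of 28 genes were tested, of which 9 rose, 5 fell and 11 did not pass (median change 0.047). This list also holds the receptors Fzd3, Ryk and Ptk7, already counted among the other receptors. Ptk7 is 1 of the 5 that fell, and Fzd3 and Ryk did not pass. The formin Daam1, which links Dishevelled to the small GTPase RhoA, rose by 1.21 (log2 scale, limma adjusted p = 0.000145). Its relative Daam2 fell by 1.30 and passed the filter only through Control. No list was tested against other genes. The counts and medians include genes that passed the filter through 1 group only, and are given as a description.

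**Figure D4:**
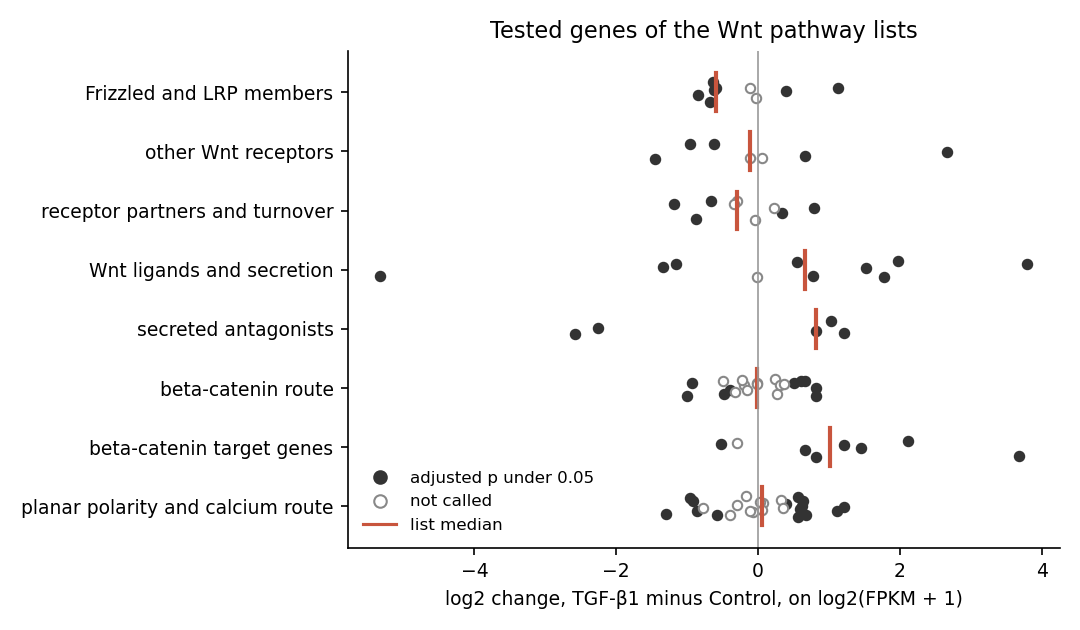
Change of each tested gene of the fixed lists on the log2(FPKM + 1) scale, TGF-β1 minus Control; filled points have an adjusted p under 0.05 in limma, open points do not, and the red bar is the list median. The Frizzled and LRP members have a median of -0.59 and the Wnt ligands 0.66, with Wnt16 at -5.32.

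Markers of other cell types moved with the treatment as well, and those named here were chosen after their values were seen. Of the macrophage markers, 3 of 7 were tested and 2 fell, and their summed level was 87.0 to 114 FPKM in Control and 9.03 to 11.3 FPKM with TGF-β1, while Lyz2 was at or near 0 and Ptprc was listed at 0 in Control. Cd14 alone made up most of these sums (94.3 ± 13.6 and 7.71 ± 0.819 FPKM). Csf1r, the other that fell, was at 6.27 ± 0.979 and 0.411 ± 0.156 FPKM. Cd68 did not pass the test, at 2.79 ± 0.836 and 2.22 ± 0.448 FPKM (limma adjusted p = 0.393). Of the tubular epithelial markers, 2 of 8 were tested and both fell, with sums of 124 to 159 and 7.33 to 9.04 FPKM, while Cdh1 and Krt8 were near 0. Cdh16 made up most of these sums (130 ± 16.1 and 6.30 ± 0.564 FPKM), and Aqp1, the other that fell, was at 10.4 ± 1.62 and 0.169 ± 0.0855 FPKM. Krt18, under the filter, was at 0.279 ± 0.120 FPKM in Control and higher, at 1.57 ± 0.219 FPKM, with TGF-β1. Of the podocyte markers, 4 of 7 were tested and all 4 fell, with sums of 27.8 to 32.2 and 15.0 to 15.6 FPKM, while Nphs1 was near 0. None of the 8 endothelial markers passed the filter, with sums of 1.16 to 1.30 and 1.07 to 1.85 FPKM. Of the mesangial markers, 9 of 14 were tested, of which 4 rose and 3 fell, with sums of 3350 to 4003 and 8904 to 9487 FPKM. Nearly all of these sums came from the contractile and cytoskeletal genes Acta2, Tagln and Vim, which rose, whereas Pdgfrb, Meis1 and Foxd1 fell. Cspg4, under the filter, was higher with TGF-β1, at 0.0735 FPKM in Control and 1.21 FPKM with TGF-β1. Csf1r, Aqp1 and Foxd1 passed the filter only through Control and remain in these counts, which are given as a description. The part of these markers in the falls of Fzd1, Fzd7, Fzd8, Lrp5 and Lrp6 and in the rise of Fzd6 was not tested.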

How the data were processed

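RNA-Seq was done on 3 Control and 3 TGF-β1 libraries of mouse primary mesangial cells. The authors obtained FPKM with Cufflinks from TopHat alignments on mm9, after a read quality filter. The submitters' processing notes name TopHat2 2.0.11. The deposited table holds FPKM in 1 column per library, each matched to a sample label, and 0 columns were left unmatched. Counts were not used here, so the count model of the study (DESeq) was not run. Strand use in counting was not given in the sources used here, and no member overlaps another gene of GENCODE M1 on mm9.

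A two-sided limma test (version 3.58.1, R 4.3.3, moderated variances with a trend in mean level) was run on log2(FPKM + 1) for the 11898 of 19730 rows that averaged 1 FPKM or more. The p-values were adjusted by Benjamini-Hochberg over these rows and called under 0.05. No covariate was used. Ror2, under the filter, is given as values only. All tested members averaged 1 FPKM or more in each group. Some listed genes, including Lgr6, Dkk2, Sfrp2, Wisp2 and Daam2, did so in 1 group only and passed the filter through that group. Their p-values are not given, but they remain in the counts that rose or fell and in the list medians. Depth was recovered from FPKM values under 0.3, of which 99.5 to 99.9% lay within 0.1 of a whole multiple of 1 fragment, at an assumed fragment length of 200 nt. Fragment numbers are therefore approximate. The fit was tested on simulated data, in which 71% of changes of 1 and 90% of changes of 2 on the log2 scale were recovered. Smaller changes, such as those of all called members but Fzd6, were not simulated. Alternatives were other pseudocounts (0.1 and 0.5), filters, scaling, GC and length correction, replicate terms and leaving out each library. Promoter sequences came from RefSeq. Python 3.11.15, numpy 2.4.6, pandas 2.3.3 and matplotlib 3.10.9 were used.

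The members and lists were chosen with earlier results of these data known. All members were named, with the called gene of largest rise and of largest fall in each list, and markers and known TGF-β responses as checks. Some checks and list results are not reported here.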

Additional observations from a re-analysis of the deposited data

How the results depend on the processing

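Over 19 refits, Fzd1, Fzd6, Fzd7, Fzd8 and Lrp6 were called in the same direction in every one, and Lrp5 in the 18 that kept it, since a mean FPKM of at least 3 removed Fzd4, Fzd5 and Lrp5. Fzd2 and Fzd4 were called in none. Fzd5 lost its call in 10 of 18. The number of members that rose was therefore 1, not 2, with no filter, with a mean FPKM of at least 3 and with upper quartile scaling. It was also 1 with replicate 2 as a batch term, with replicates 1 and 3 alone and at an adjusted p under 0.01. With 1 library left out, 1 to 2 rose and 5 fell each time. The number that fell was 4 with a mean FPKM of at least 3, which removed Lrp5. It was also 4 at an adjusted p under 0.01, which Lrp6 did not pass (limma adjusted p = 0.0121). Without a filter, 8 receptor partners were called. At a mean FPKM of at least 3, 3 other Wnt receptors, 1 secreted antagonist and 4 β-catenin target genes were called, from fewer tested genes. At an adjusted p under 0.01, 8 planar polarity and calcium genes and 3672 of all tested rows were called, 1727 of them lower. With 1 library left out, 4419 to 5446 rows were called.

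The replicate numbers were not treated as pairs. Same-numbered Control and TGF-β1 libraries had correlated deviations of 0.0921, 0.232 and 0.0853. Control replicate 1 with TGF-β1 replicate 3 had 0.117, and all other pairs of unlike number were negative, from -0.194 to -0.016. A shared batch of same-numbered libraries was not tested. With the replicate block, 5391 rows and 6 members were called, 1 that rose and 5 that fell, and Fzd5 was the member lost. Depth limits Ror2, at 0 to 2 fragments per library.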
